A study of Homo sapiens with 3 samples.

Results

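DDX6 peaks that the authors' annotation places in the exons of non-coding genes are described here. They are all lines of the 2 deposited peak lists whose first annotation is a non-coding exon, with no threshold on fold or p. The list of DDX6 IP replicate 1 held 4992 such peaks among 123298, and that of replicate 2 held 2165 among 62411, which gives 7157 peaks in all. They carried 2344 gene symbols, of which 820 had a peak in both lists and 1070 had a single peak. They were kept apart by kind: peaks on the mitochondrial chromosome (134 in replicate 1 and 84 in replicate 2), peaks whose identifier contains the word lncRNA (3384 and 1267), and peaks of other non-coding genes (1474 and 814).

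DDX6 is a cytoplasmic DEAD-box RNA helicase that represses translation, promotes removal of the mRNA cap and is needed for P-bodies, the granules that hold untranslated mRNA. Its usual clients are mRNAs. Non-coding transcripts therefore offer classes that meet the cytoplasm to very different degrees. Small nucleolar RNAs, spliceosomal RNAs, 7SK and the lncRNAs MALAT1 and NEAT1 work in the nucleus, Y RNAs, vault RNAs and NORAD are found in the cytoplasm, and the RNAs encoded by mitochondrial DNA are made inside the organelle.

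The cells were MOLM-13, an established line from an acute myeloid leukaemia, with no treatment or genetic change named in the labels. In eCLIP, ultraviolet light links RNA to bound protein, RNase I trims the RNA, and the fragments recovered with an antibody, here against DDX6, are sequenced beside an input library from lysate without the antibody step. There were 2 IP libraries (replicate 1 and replicate 2) and 1 input library. Nothing says that the replicates were separate cultures, so the p-values below reflect how much these libraries vary, which can be purely technical. That spread was shared over gene regions and is not the spread of each row.

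The tables held 4643494 counted reads for replicate 1, 1244213 for replicate 2 and 7807540 for the input. Both IPs were set against the same input, so their folds share its error and are given side by side. All 6 myeloid markers looked up (CD33, MPO, FLT3, SPI1, LYZ and CEBPA) were detected, with 5023 exonic input reads in all, and 6 of 7 markers of other blood cells were at 0, the exception being CD3D with 15 reads. Intervals and read floors below cover counting error only. In a lysate of many cells, more bound RNA per cell and more cells with bound RNA cannot be told apart. The way the authors treated strand and reads that match several places is not given in the sources used here. Values of near-identical copies (Y RNAs, 5S rRNA, U6, pseudogenes and mitochondrial copies in the nuclear genome), and of antisense partners, are therefore uncertain.

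Peaks in non-coding exons were called less often than listed peaks as a whole in replicate 1 and about as often in replicate 2, and the average covered classes at opposite ends of the range. A peak was called enriched when the authors' own values gave it a -log10 p of at least 3 and a log2 fold of IP over input of at least 3. By this rule 316 peaks (6.33%) were called in replicate 1 and 282 (13.0%) in replicate 2, against 11.5 percent of all listed peaks in replicate 1 and 12.9 percent in replicate 2. Coding-sequence peaks were called at 14.9% in both lists, 3' untranslated region peaks at 10.6% and 10.8%, and distal intron peaks at 0.924% and 3.78%. The median log2 fold in non-coding exons was 1.33 in replicate 1 and 1.90 in replicate 2, against 1.77 and 2.29 over all listed peaks. A log2 fold below 0 was found for 1014 peaks (20.3%) in replicate 1 and 485 (22.4%) in replicate 2, beside 6.77% and 2.92% of all listed peaks, 1.02% and 1.23% of coding-sequence peaks, and 26.4% and 4.14% of distal intron peaks.

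Within these peaks the mitochondrial class was called at 14.9% and 28.6% (20 and 24 peaks). The lncRNA-named class was called at 5.26% and 7.89% (178 and 100 peaks), under the share of all listed peaks in both libraries. The other non-coding class was called at 8.01% and 19.4% (118 and 158 peaks), under that share in replicate 1 and above it in replicate 2. Replicate 1 is the deeper library, and whether depth had a part in the difference between the lists was not tested.

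**Figure D1:**
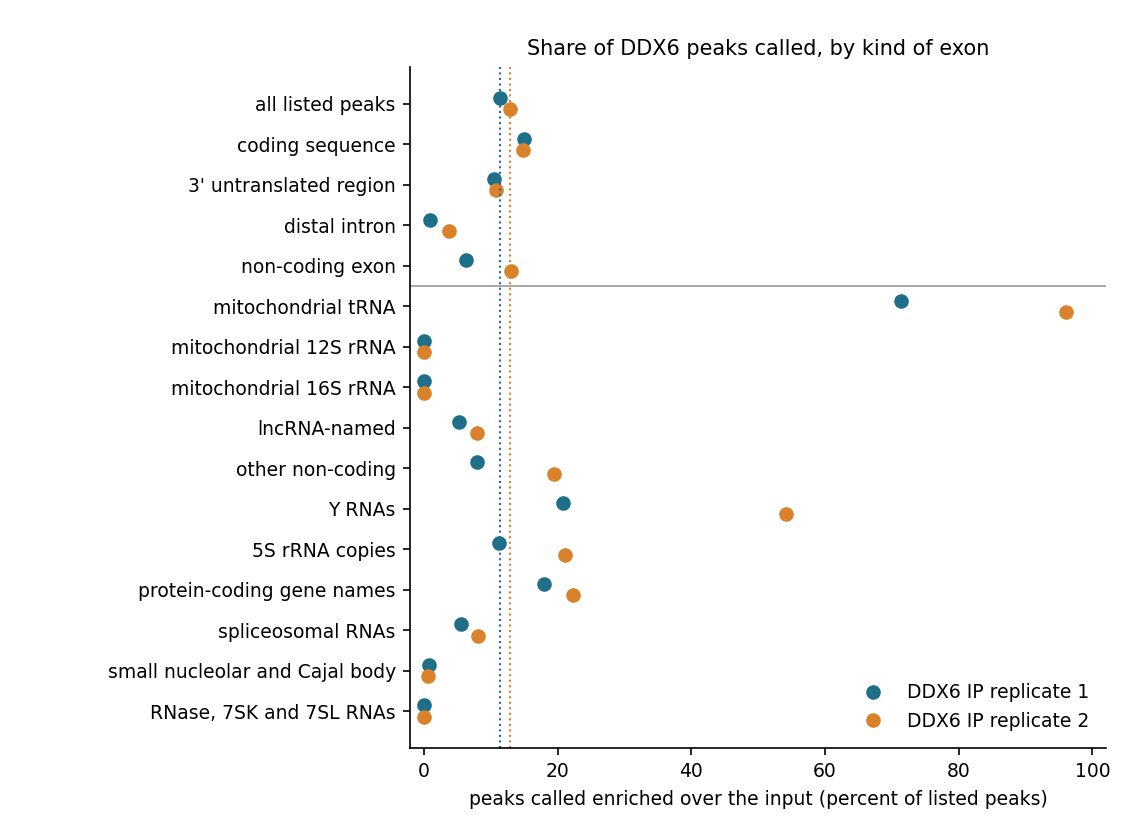
Percent of listed peaks called enriched over the input (horizontal axis) for transcript regions (above the grey line) and for kinds of non-coding exon (below it), with 1 point per IP library and dotted lines at the share over all listed peaks of each library. Mitochondrial tRNA (71.4% and 96.0%) and Y RNA peaks (20.8% and 54.2%) lie to the right of both dotted lines, and small nucleolar and 7SK, 7SL and RNase RNAs lie at or near 0.

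Peak values are not independent of each other. The lists cut long peaks into touching pieces, and 75 of 735 touching pairs (10.2%) in replicate 1 and 107 of 415 (25.8%) in replicate 2 carried 1 shared value. Folds also repeat across the list: the 5 commonest log2 folds covered 28.3% of the peaks in replicate 1 and 23.7% in replicate 2. With called pieces within 10 bases joined, the 316 and 282 called peaks formed 235 and 226 sites. Most peaks had little support, as 4056 (81.2%) in replicate 1 and 1611 (74.4%) in replicate 2 had a -log10 p under 3. At the fold threshold lay a MALAT1 peak (3.002) just inside and an SNHG16 peak (2.982) just outside in replicate 1, and Y RNA peaks on both sides in replicate 2 (3.004 and 2.989). Annotation also overlapped, since 22.5% and 28.3% of the peaks lay in an intron of a coding gene too, and of these 2.67% and 8.66% were called.

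The RNAs encoded by mitochondrial DNA split by kind. Mitochondrial tRNAs, which carry amino acids to the organelle's own ribosomes, had 28 peaks in replicate 1 and 25 in replicate 2, and 20 (71.4%) and 24 (96.0%) of them were called. Their log2 folds ran from 1.99 to 5.91 with a median of 4.39 in replicate 1, and from 2.51 to 6.49 with a median of 4.85 in replicate 2. No tRNA peak was below 0 in either list. The 2 mitochondrial rRNAs had more peaks and none was called: MT-RNR1, the small-subunit rRNA, had 43 and 23 peaks with a median log2 fold of 0.66 in both, and MT-RNR2, the large-subunit rRNA, had 63 and 36 with medians of -0.06 and -0.05.

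Among the tRNAs, the isoleucine tRNA MT-TI (chrM:4286-4332, plus strand, hg19) had a single peak at 4.77 in replicate 1 and 3 peaks from 6.44 to 6.49 in replicate 2. The threonine tRNA MT-TT (chrM:15916-15955) had peaks from 4.69 to 5.02 and from 5.73 to 6.43. The phenylalanine tRNA MT-TF (chrM:591-634) had peaks from 4.61 to 4.75 and from 5.10 to 5.40. For these 3 tRNAs every peak of replicate 2 lay above every peak of replicate 1. The arginine tRNA MT-TR had the opposite order, with peaks at 5.75 and 5.91 in replicate 1 and one at 4.35 in replicate 2. The glycine tRNA MT-TG had 4.85 to 4.86 and 5.63 to 5.72, and the histidine tRNA MT-TH had 4.01 to 4.20 and 4.40 to 4.65.

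The leucine tRNA MT-TL1, which lies directly after MT-RNR2 on the chromosome, was the lowest tRNA by listed peaks in both libraries and was called in neither, at 1.99 and 2.51. By reads it was not the lowest, with 93 in replicate 1, 46 in replicate 2 and 9 in the input (3.92 ± 0.54, adjusted p = 1.56e-11), above the tyrosine tRNA MT-TY (3.64). Both MT-TL1 peaks had a -log10 p of 400, the cap of the lists, which so few reads would not give. The count row and the peaks may therefore not cover the same reads. The valine tRNA MT-TV, which lies between the rRNA genes, straddled the threshold with 6 peaks from 2.83 to 2.84 in replicate 1 and 3 peaks from 3.24 to 3.27 in replicate 2. The cysteine tRNA MT-TC was at 2.43 in replicate 1 and 4.68 in replicate 2. These 3 account for all 8 tRNA peaks of replicate 1 that were not called. The reference used for the mitochondrial chromosome is not given beyond the build name, so these positions are as deposited.

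**Figure D2:**
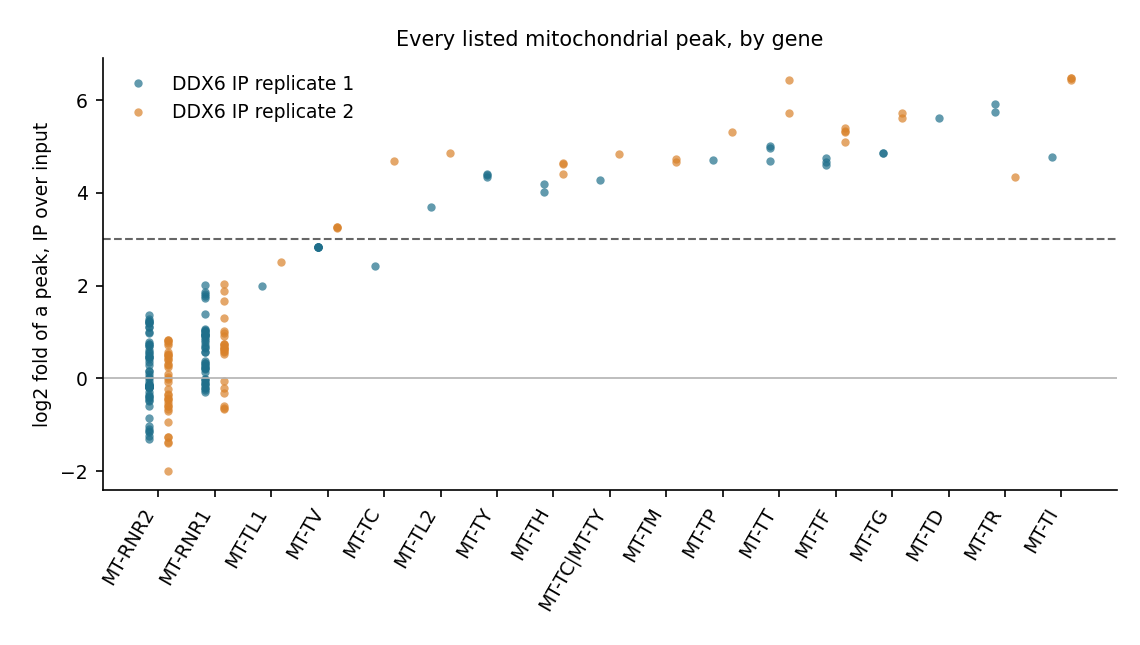
Log2 fold of IP over input (vertical axis) of every listed mitochondrial peak, by gene along the horizontal axis and by IP library, with a dashed line at the fold needed for a call. Every MT-RNR1 and MT-RNR2 peak lies under the line, with a highest value of 2.03, and tRNA peaks reach 6.49.

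By reads the tRNAs also stood above the rRNAs. MT-TF had 3664 reads in replicate 1, 1160 in replicate 2 and 42 in the input, although the input was the deepest library. MT-TI had 2362, 1517 and 105 reads, and MT-TT had 1912, 1040 and 77. Both IP libraries stood above the input for all 3 after scaling, and edgeR's quasi-likelihood test over all gene regions gave MT-TF a log2 fold of 6.71 ± 0.56 (SE, adjusted p = 3.16e-29), MT-TI 5.40 ± 0.52 (adjusted p = 1.76e-22) and MT-TT 5.38 ± 0.51 (adjusted p = 3.01e-23). Of 15 mitochondrial tRNA rows tested, 13 were higher in the IP and 0 lower, with a median log2 fold of 4.64. Of all 29133 gene regions, 25.0 percent were higher and 31.1 percent lower. A row was tested if 2 of the 3 libraries reached 10 reads, so IP reads alone could admit it and input reads alone could not. This filter favours higher rows in the counts here and below. MT-TM, the methionine tRNA, had 312, 89 and 8 reads (5.44 ± 0.52, adjusted p = 1.49e-22), although only replicate 2 had listed peaks there. MT-TR had 1 input read against 72 and 26, a ratio of 84.9 after scaling with a counting interval from 14.9 to 3388. Without replicate 2 there was no fit, only a log2 ratio of replicate 1 to the input with a prior count of 2. That ratio was 4.56 for MT-TI, 4.69 for MT-TT, 4.54 for MT-TG and 3.19 for MT-TL1.

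The rRNAs did not pass this test. MT-RNR1 had 39714 reads in replicate 1, 10196 in replicate 2 and 43896 in the input (log2 fold -0.03 ± 0.46, adjusted p = 0.967). MT-RNR2 had 76367, 20408 and 131711 (-0.64 ± 0.49, adjusted p = 0.261). Along MT-RNR1 the folds were uneven: the stretch chrM:693-739 held values from 1.68 to 2.03 in both libraries, and a second rise to 2.02 at chrM:1015-1042 was seen in replicate 1. As a share of all counted reads, mitochondrial tRNAs took 0.346% and 0.531% of the IP libraries (mean 0.438 ± 0.130, SD, n = 2) and 0.0104% of the input, a 42.1-fold difference. MT-RNR1 took 0.855% and 0.820% against 0.562%, and MT-RNR2 took 1.64% in each IP library against 1.69%.

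Y RNAs also had many called peaks. They are short cytoplasmic RNAs, bound by the Ro60 and La proteins, with many pseudogene copies across the genome. Their 183 peaks in replicate 1 and 144 in replicate 2 lay at 132 and 107 identifiers on 22 chromosomes. In replicate 1, 38 peaks (20.8%) were called, and in replicate 2, 78 (54.2%), with median log2 folds of 2.01 and 3.64. These calls lay at 17 of the 132 identifiers in replicate 1 and 53 of the 107 in replicate 2. Only 3 and 0 of these peaks were below 0.

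The copy RNY3P6 (chr13:100188610-100188630, minus strand) had log2 folds of 5.58 and 7.01. It had 119 reads in replicate 1, 62 in replicate 2 and 2 in the input, a ratio of 78.4 after scaling with a counting interval from 21.4 to 653. RNY4P20 (chr6:151620025-151620047, minus strand) had 5.23 and 7.03, and its 56 and 21 IP reads stood against 0 in the input, so it was at least 20.4-fold higher in replicate 1 and at least 29.3-fold higher in replicate 2 against a floor of 3 input reads. A copy named only Y_RNA (chr14:64315050-64315068, minus strand) had 5.96 and 6.10. All 3 were called in both lists, with small read numbers behind them. Among copies with more reads, the Y_RNA identifiers ENSG00000199580.1 (135, 149 and 14 reads, 4.68 ± 0.48, adjusted p = 2.05e-19) and ENSG00000200208.1 (119, 73 and 17 reads, 3.58 ± 0.47, adjusted p = 3.12e-12) had the smallest p with RNY3P6. Without replicate 2 the log2 ratios of these 2, taken with a prior count and no fit, were 3.18 and 2.76.

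The parent genes RNY4 and RNY3 had smaller folds than these copies, which the rule named for large folds or small p. Against the median of all Y RNA rows given below, RNY4 lay higher and RNY3 lower. RNY4 had 2881 reads in replicate 1, 562 in replicate 2 and 373 in the input (log2 fold 2.88 ± 0.43, adjusted p = 3.19e-10) and no listed peak. RNY3 had 3876, 614 and 1809 (0.92 ± 0.39, adjusted p = 0.0376), a call that was lost with DESeq2, with no filter on reads, and when the scaling was computed on exonic regions alone, with introns left out. Of 51 Y RNA rows tested, 34 were higher (66.7%) and 1 lower (1.96%), with a median log2 fold of 1.89. Over all gene regions these shares were 25.0 percent and 31.1 percent. The filter on reads, which IP reads alone can pass and input reads alone cannot, favours higher rows here. The count of higher rows was 10 of the 28 given an adjusted p with DESeq2 and 18 with scaling to exonic regions, and the median stayed above 0 in both. Y RNAs of the other non-coding class took 0.214% of reads in replicate 1, 0.248% in replicate 2 and 0.0529% in the input.

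Vault RNAs, the RNA part of the cytoplasmic vault particle, had 4 listed peaks in each library and none was called. VTRNA1-1 had a peak at 1.65 in replicate 1 and peaks at 2.13 and 2.16 in replicate 2, and VTRNA1-2 had one at 2.19 and one at 2.87. By reads VTRNA1-1 had 5766, 1606 and 2162 (log2 fold 1.59 ± 0.43, adjusted p = 5.54e-04), which was not called with scaling to exonic regions. VTRNA1-2 had 214, 60 and 51 (2.24 ± 0.40, adjusted p = 1.83e-07). VTRNA1-3 had 211, 52 and 276 reads and did not pass (-0.29 ± 0.34, adjusted p = 0.480). The copy VTRNA3-1P had 32 reads in replicate 1, 15 in replicate 2 and 0 in the input, which makes it at least 11.7-fold and at least 20.9-fold higher. Their share of reads was 0.141% and 0.148% in the IP libraries and 0.0405% in the input.

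Copies of 5S rRNA, the small RNA of the large ribosomal subunit, were mixed. Of 125 peaks in replicate 1 and 90 in replicate 2, 14 (11.2%) and 19 (21.1%) were called. All listed peaks were called at 11.5 percent and 12.9 percent, so replicate 1 was near that share. RNA5SP263, on chromosome 8, had all 5 peaks called in replicate 1, from 4.27 to 4.55, and all 4 in replicate 2, from 5.38 to 5.41. RNA5SP225 (chr6:153741608-153741660, plus strand) lay at the other end, at -2.68 in replicate 1 and -2.01 in replicate 2, and had 57, 26 and 654 reads (-3.04 ± 0.35, adjusted p = 1.14e-15). RNA5SP67 (17, 7 and 149 reads, -2.78 ± 0.45, adjusted p = 8.65e-09) and RNA5SP152 (37, 19 and 194 reads, -1.86 ± 0.38, adjusted p = 6.02e-06) were lower as well, the last at -1.25 without replicate 1. Of 41 copies tested, 13 were higher (31.7%) and 8 lower (19.5%), beside 25.0 percent and 31.1 percent of all gene regions. The median log2 fold of 0.49 became -0.27 with scaling to exonic regions.

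Spliceosomal RNAs also went both ways. The 91 and 49 peaks held 5 (5.5%) and 4 (8.16%) calls, under the 11.5 percent and 12.9 percent of all listed peaks. Of 28 rows 10 were higher (35.7%) and 7 lower (25.0%), beside 25.0 percent and 31.1 percent of all gene regions. The median log2 fold of 0.52 became -0.25 with scaling to exonic regions and -0.44 with at least 30 reads. The U6 gene RNU6-1 had 150, 73 and 18 reads (3.63 ± 0.47, adjusted p = 1.03e-12), and the U6 copy RNU6-36P had 89, 53 and 9 (4.01 ± 0.54, adjusted p = 4.14e-12). The U4 gene RNU4-2 had 358, 347 and 5892 reads (-2.70 ± 0.37, adjusted p = 6.73e-12), with log2 folds of -3.90 in replicate 1 and -2.02 in replicate 2, and was not called with DESeq2. The only listed peak of RNU6-1, in replicate 1, was at 0.42. Without replicate 2 the log2 ratios, taken with a prior count and no fit, were 3.01 for RNU6-1, 3.13 for RNU6-36P and -3.94 for RNU4-2. By reads both U6 genes lay above the input and U4 below it in each IP library.

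Small nucleolar and Cajal body RNAs, which guide modification of rRNA and spliceosomal RNA in the nucleus, were depleted. Their 403 and 313 peaks formed the largest group of small RNAs, and only 3 (0.744%) and 2 (0.639%) were called. A log2 fold below 0 was found for 371 peaks in replicate 1 and 249 in replicate 2, with medians of -1.69 and -1.23. SNORA76 had 120, 74 and 3149 reads (-3.91 ± 0.36, adjusted p = 4.18e-24; -4.60 without replicate 2), and SNORA31 had 175, 57 and 2516 (-3.57 ± 0.35, adjusted p = 2.74e-21). SNORA31 also had a listed peak in each library, at -3.33 and -2.90. SNORA11 had 24, 5 and 122 reads (-2.30 ± 0.46, adjusted p = 2.96e-06), and its only listed peak, in replicate 2, was at 0.64. Of 9 rows tested, 0 were higher and 6 lower. No row in this list was called higher under any of the alternative settings.

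The RNAs 7SK (RN7SK, an inhibitor of transcription elongation factor P-TEFb), 7SL (part of the signal recognition particle), RMRP and RPPH1 (the RNA parts of RNase MRP and RNase P) had 67 and 55 peaks and 0 calls. Of these peaks 54 and 37 were below 0. RN7SK had 10604 reads in replicate 1, 2927 in replicate 2 and 65331 in the input (-2.45 ± 0.43, adjusted p = 1.05e-07). RPPH1 had 2774, 1153 and 39116 (-3.32 ± 0.42, adjusted p = 3.51e-13), and RMRP had 6176, 2879 and 36752 (-1.97 ± 0.42, adjusted p = 1.07e-05). Of 13 rows, 0 were higher and 11 lower, with a median log2 fold of -1.47. With library size alone 5 were lower, and with DESeq2 3 of the 10 given an adjusted p. The lowest non-coding exon row of all was ENSG00000252310.1, which the symbol table does not name, with 302, 183 and 10971 reads (-4.35 ± 0.39, adjusted p = 3.74e-25; -5.08 without replicate 2) and no listed peak. ENSG00000259820.1, also without a symbol or a listed peak, had 14, 4 and 144 (-3.18 ± 0.48, adjusted p = 5.18e-10).

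Some peaks labelled as non-coding exon carried symbols that the gene reference used here types as protein-coding. For names such as CASP8AP2 and UHRF1 this goes against the label. The set also holds antisense, LINC and pseudogene names, such as FAM83H-AS1, LINC00116 and HNRNPA1P48, for which it need not. In the other non-coding class these were 289 peaks in replicate 1 and 143 in replicate 2, and 52 (18.0%) and 32 (22.4%) were called, above the share of all listed peaks in both libraries. The calls were concentrated in few genes, above all in replicate 1. CASP8AP2, ZNF518A and ZNF761 held 19, 11 and 7 of the 52 calls there, and 6, 7 and 0 of the 32 in replicate 2. The peaks typed in this way belonged to 114 symbols, of which 46 had no coding-sequence or UTR peak in either list. Those 46 include the 3 antisense, LINC and pseudogene names given above. CASP8AP2, a nuclear protein that binds caspase 8 and takes part in histone gene expression, had 23 peaks in replicate 1 with log2 folds from 1.65 to 5.65 (median 3.75) and 22 in replicate 2 from 1.83 to 4.81 (median 3.01), and 19 and 6 were called. The zinc finger gene ZNF518A had 26 and 13 peaks with 11 and 7 called, and the zinc finger gene ZNF761 had 9 and 2 with 7 and 0 called. UHRF1, which recruits the DNA methyltransferase DNMT1 to replicated DNA, had 11 and 10 peaks with 1 and 3 called.

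Over all 84 exon rows with symbols typed as protein-coding, 18 were higher and 13 lower, with a median log2 fold of 0.12. Scaling to exonic regions gave 4 higher and 24 lower. Of these genes 32 also had a tested row of non-coding introns, and 0 of those rows were higher and 24 lower, with a median of -1.72. Lower introns were not particular to these genes. The lncRNA OIP5-AS1 had intron rows at -2.19 and -1.65, while GAS5 had one at -0.32 that did not pass. Exonic reads of every kind made up 67.6% and 62.6% of the IP libraries and 30.7% of the input. The share of lower rows over all introns is not given here. The 5 genes named next were higher in exons and lower in introns. CASP8AP2 had 1167, 228 and 253 exon reads (2.15 ± 0.39, adjusted p = 1.67e-07) and 71, 21 and 433 reads in its row of non-coding introns (-2.41 ± 0.35, adjusted p = 9.52e-11). ZNF518A had 1281, 287 and 311 exon reads (2.07 ± 0.39, adjusted p = 5.87e-07), and its introns gave -1.62 ± 0.33 (adjusted p = 3.79e-06). ZNF761 had 230, 44 and 43 exon reads (2.37 ± 0.41, adjusted p = 7.07e-08), with introns at -1.91 ± 0.59 (adjusted p = 0.00278). UHRF1 and PLK1S1 had the same arrangement at smaller size: the former gave 1.09 ± 0.36 in exons (adjusted p = 0.00628) and -2.10 ± 0.33 in introns, and the latter gave 1.31 ± 0.39 (adjusted p = 0.00228) and -1.72 ± 0.33. RP11-427H3.3, which has no protein-coding name, was also among the genes with most peaks in this class, with 15 and 7 peaks and 0 calls (231, 27 and 140 reads, 0.47 ± 0.36, adjusted p = 0.264). The exon calls of UHRF1 and PLK1S1 were lost with DESeq2, with scaling to exonic regions and with no filter.

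Pseudogenes, here symbols that end in P and a number and are typed as pseudogenes, had 479 peaks in replicate 1 and 128 in replicate 2. Of these, 14 (2.92%) and 21 (16.4%) were called, beside 11.5 percent and 12.9 percent of all listed peaks. The list does not separate processed copies of mRNAs from other pseudogenes. RPL37AP1, a copy of the ribosomal protein gene RPL37A, had the highest fold of the list in both libraries, at 6.11 and 7.13 (chr20:43095415-43095482, minus strand, replicate 1). It had 118, 51 and 1 reads, a ratio of 146 after scaling with a counting interval from 25.9 to 5819. A second copy, RPL37AP8 (chr11:111760050-111760117, minus strand), had a peak of the same 68 bases in length at 5.18 in replicate 1 and no listed peak in replicate 2. Over all copies of ribosomal protein genes, 4 of 95 peaks and 7 of 28 were called. Of 77 pseudogene rows tested, 12 were higher (15.6%) and 4 lower (5.2%), beside 25.0 percent and 31.1 percent of all gene regions. One of the higher was RPLP0P6 (89, 37 and 32 reads, 1.90 ± 0.45, adjusted p = 7.59e-05). One of the lower was RPL32P3 (18, 5 and 89 reads, -2.14 ± 0.49, adjusted p = 4.98e-05), which was not called with DESeq2. Scaling to exonic regions gave 2 higher and 11 lower with a median of -0.48, no filter gave 4 and 4, and library size alone gave 24 and 1.

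Most of the peaks in non-coding exons belong to lncRNA-named genes, and few of these were called. Of the 178 called in replicate 1, 30 lay in lnc-SNRPN-1, 23 in NORAD and 11 in OTUD6B-AS1. NORAD (LINC00657 in these files), an abundant cytoplasmic lncRNA that binds the Pumilio proteins, had 35 peaks in replicate 1 and 18 in replicate 2 along chr20:34633884-34638060, minus strand. Its log2 folds ran from 2.31 to 4.24 (median 3.16) and from 1.01 to 3.50 (median 2.30), with 23 and 2 called. No NORAD peak was below 0 in either library. By reads it had 4119, 694 and 826 (2.17 ± 0.42, adjusted p = 1.40e-06).

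lnc-SNRPN-1, downstream of the imprinted SNRPN gene (chr15:25230376-25240963, plus strand), held 39 and 28 peaks with log2 folds from 0.88 to 5.71 (median 3.44) and from 1.13 to 4.23 (median 2.87). In replicate 1, 30 were called, and in replicate 2, 10. No count row has this name, so the read test does not cover it. The neighbouring annotation that combines SNHG14 with lnc-SNRPN-8 had 43 and 15 peaks with 4 and 0 called, and medians of 1.86 and 2.06. The antisense transcript OTUD6B-AS1, on chromosome 8, had 16 and 6 peaks with 11 and 3 called and medians of 3.66 and 3.20.

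OIP5-AS1, a cytoplasmic lncRNA known to bind HuR and miR-7, had many peaks of moderate height. Its 42 peaks in replicate 1 ran from 0.70 to 2.97 and its 24 in replicate 2 from 0.83 to 3.45, with 0 and 5 called. It had 2118, 446 and 1067 reads (0.97 ± 0.38, adjusted p = 0.0210), a call lost with scaling to exonic regions and with no filter. HCG11 had 390, 93 and 181 reads (1.18 ± 0.36, adjusted p = 0.00243), lost under the same settings. The list of cytoplasmic or mRNA-like lncRNAs had 157 and 79 peaks with 25 (15.9%) and 9 (11.4%) called. All listed peaks were called at 11.5 percent and 12.9 percent. NORAD alone held 23 of the 25 calls in replicate 1. In replicate 2 OIP5-AS1 held 5 of the 9, and NORAD and HCG11 held 2 each. Of the 8 rows on this list, 3 were higher (NORAD, OIP5-AS1 and HCG11) and 1 lower (SNHG5). With scaling to exonic regions 1 was higher and 4 lower, and with no filter 1 was higher and 1 lower.

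The list of nuclear lncRNAs had 215 and 101 peaks with 2 and 0 called, and 91 and 67 lay below 0. MALAT1, a lncRNA of nuclear speckles, had more peaks than any other lncRNA, 91 in replicate 1 and 49 in replicate 2 (chr11:65266519-65273522, plus strand). Its median log2 folds were 0.37 and -0.49. The values followed position, with a division at 3 kb set after they were seen: in the first 3 kb from the outermost 5' peak the medians were 1.21 over 70 peaks and 0.05 over 36, and beyond 3 kb all 21 peaks in replicate 1 and all 13 in replicate 2 were below 0, with medians of -1.01 and -1.49. In the window from 1 to 2 kb, where the highest values lay, the medians were 1.58 and 0.57. In the first 1 kb they were 0.79 and -0.055. From 2 to 3 kb they were already below 0, at -0.26 and -0.94, with 10 of 14 and 7 of 7 peaks below 0.

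MALAT1 had 28804, 5355 and 57847 reads (-1.10 ± 0.44, adjusted p = 0.0255), a call lost with at least 30 reads and with library size alone. NEAT1, the scaffold of paraspeckles, had 53 and 41 peaks and 0 calls, with medians of -0.42 and -0.55 (chr11:65190281-65212939, plus strand). It had 7075, 1662 and 20910 reads (-1.51 ± 0.41, adjusted p = 5.77e-04), lost with library size alone. By reads KCNQ1OT1, an imprinted antisense transcript, gave -1.44 ± 0.34 (115, 35 and 364 reads, adjusted p = 7.67e-05), and FTX, a lncRNA near XIST, gave -2.07 ± 0.40 (41, 5 and 158 reads, adjusted p = 1.54e-06; -2.74 without replicate 1). Their listed peaks lay higher. KCNQ1OT1 had 5 peaks in replicate 1 from 0.59 to 3.60 and 1 in replicate 2 at 1.83, and FTX had 35 with a median of -0.21, 18 of them below 0, and 4 with a median of 1.66. TUG1, which is on the nuclear and the cytoplasmic list, did not pass (469, 121 and 424 reads, 0.27 ± 0.34, adjusted p = 0.528). Of the 8 rows on the nuclear list 0 were higher and 4 lower, and with library size alone 1 was higher and 2 lower, with a median of -0.30. XIST, a nuclear lncRNA that is not on the list and was singled out after its values were seen, lay in the other direction, with a log2 fold of 1.97 ± 0.39 (adjusted p = 1.74e-06) and 5 of 18 peaks called in replicate 1 and 1 of 4 in replicate 2.

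**Figure D3:**
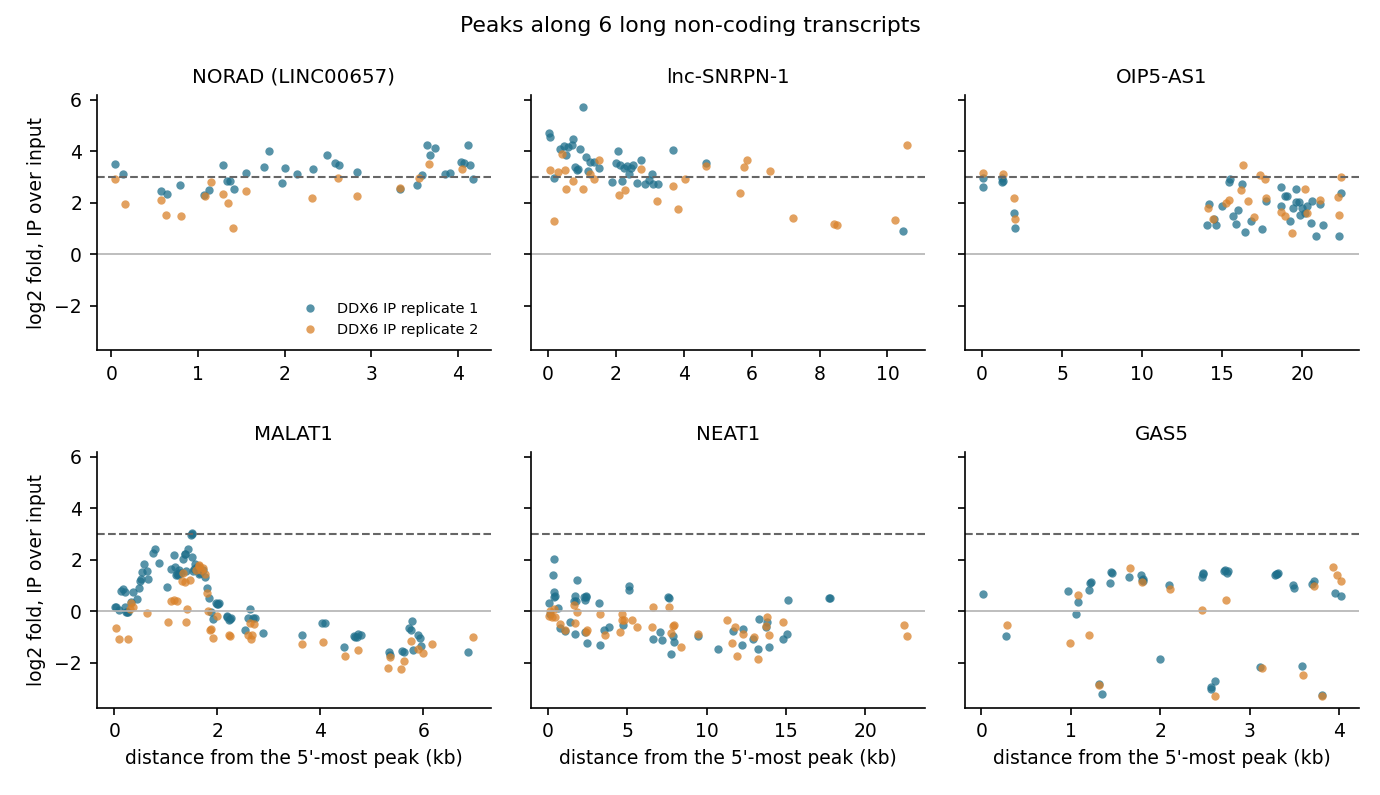
Log2 fold of each listed peak (vertical axis) against its distance in kb from the outermost 5' peak (horizontal axis) for 6 lncRNAs, with 1 colour per IP library and a dashed line at the fold needed for a call. NORAD and lnc-SNRPN-1 peaks lie around the line, MALAT1 and NEAT1 peaks lie mostly under it and below 0 toward the 3' end of MALAT1, and GAS5 alternates between values near 1 and values under -1.5.

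Host genes of small RNAs, whose spliced exons surround introns that release small nucleolar RNAs or microRNAs, were mostly lower in the IP by reads. Their list had 285 and 150 peaks with 7 and 2 called. Of 26 rows 0 were higher and 16 lower, with a median log2 fold of -1.70. SNHG12 had 463, 186 and 4733 reads (-2.90 ± 0.36, adjusted p = 1.40e-13), SNHG8 had 1142, 418 and 9459 (-2.66 ± 0.38, adjusted p = 4.42e-11), and SNHG1 had 1494, 441 and 7631 (-2.13 ± 0.37, adjusted p = 6.75e-08). MIR17HG, the host of the miR-17 to miR-92a cluster, had 2 count rows, one with 112, 28 and 384 reads (-1.67 ± 0.34, adjusted p = 3.93e-06) and one with 28, 18 and 302 (-2.74 ± 0.38, adjusted p = 2.39e-11; -1.96 without replicate 1). Its 3 and 2 listed peaks had medians of 0.20 and 1.42, none below 0. SNHG16 did not pass, with 980, 199 and 689 reads (0.47 ± 0.35, adjusted p = 0.252). With library size alone, 3 rows were higher and 13 lower, and with DESeq2 0 were higher and 13 lower of the 23 given an adjusted p.

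The peaks inside these rows differed between genes. Below 0 lay 6 of 6 and 3 of 3 peaks of SNHG8, 10 of 11 and 7 of 7 of SNHG12, and 14 of 15 and 10 of 12 of SNHG1. For SNHG5 these were 6 of 20 and 3 of 8, and for SNHG16 1 of 22 and 2 of 16. GAS5 was mixed. Its 1707, 384 and 8503 reads gave -2.29 ± 0.37 (adjusted p = 8.41e-09), yet its peaks fell in 2 sets, divided at -1.5 after their values were seen. In replicate 1, 9 of 43 peaks lay from -3.24 to -1.87 and the other 34 had a median of 1.19. In replicate 2, 5 of 18 lay from -3.29 to -2.19 and the other 13 had a median of 0.85. The low and high peaks alternated along the gene (chr1:173833074-173837125, minus strand). Over the whole list, peaks whose annotation also carried a small nucleolar RNA symbol numbered 30 and 21, with medians of -1.42 and -1.19, and 30 and 15 of them were below 0. The remaining 255 and 129 had medians of 0.80 and 0.85.

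Antisense transcripts had 478 and 150 peaks with 24 (5.02%) and 19 (12.7%) called, beside 11.5 percent and 12.9 percent of all listed peaks. Of 89 rows 10 were higher (11.2%) and 25 lower (28.1%), with a median log2 fold of -0.20. Over all gene regions the shares were 25.0 percent and 31.1 percent. Library size alone gave 18 higher and 7 lower with a median of 0.45, scaling to exonic regions gave 1 and 34, and DESeq2 gave 2 and 4 of the 30 given an adjusted p. HNRNPU-AS1 had 139, 38 and 1041 reads (-2.75 ± 0.33, adjusted p = 4.71e-14) and SLC16A4-AS1 had 17, 0 and 89 (-2.69 ± 0.51, adjusted p = 9.46e-07; -4.84 without replicate 1). Among lncRNA-named peaks called in both lists, 4 short sites had high folds. NR2F2-AS1 (chr15:96826146-96826170, minus strand) had 6.22 and 8.17, and its 37 and 46 IP reads against 0 in the input made it at least 13.5-fold higher in replicate 1 and at least 64.2-fold higher in replicate 2. MIR100HG (chr11:122102430-122102441, minus strand) had 5.82 and 6.64, and TRIM52-AS1 (chr5:180692666-180692694, plus strand) had 4.87 and 5.10. lnc-ADAMTS14-1 (chr10:72577388-72577411, plus strand) had 3.33 in replicate 1 and 7.50 in replicate 2.

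**Figure D4:**
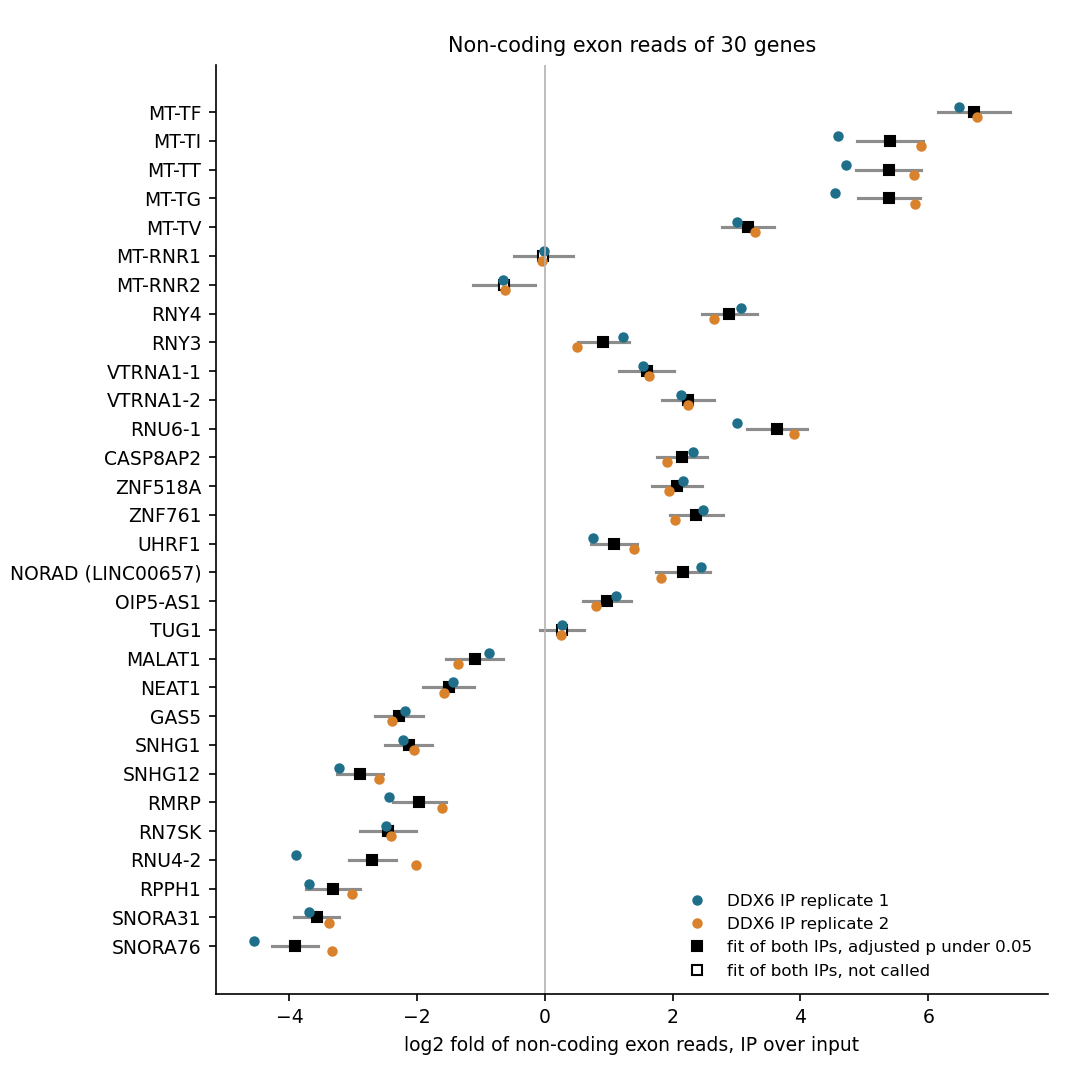
Log2 fold of non-coding exon reads, IP over input (horizontal axis), for 30 genes, with circles for each IP library, squares for the edgeR fit of both (filled where the adjusted p is under 0.05) and grey bars for its standard error. Mitochondrial tRNAs lie at the top right with MT-TF at 6.71, SNORA76 (-3.91), SNORA31 (-3.57) and RPPH1 (-3.32) lie at the left, and the U6 gene RNU6-1 (3.63) lies at the right.

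Over all non-coding exon rows, 985 had enough reads to be tested, of 12880 identifiers with any read there. Of the 985, 184 (18.7%) were higher and 208 (21.1%) lower, with a median log2 fold of -0.02 beside 0.07 over all gene regions. Rows read only in the input could not be tested, while rows read only in the IPs could. By class, 68 of 578 lncRNA-named rows were higher and 151 lower, 13 of 17 mitochondrial rows were higher and 0 lower, and 103 of 390 other rows were higher and 57 lower. Among 8169 coding-sequence rows, 4228 were higher and 12 lower. The split depended on scaling: library size alone gave 304 higher and 106 lower and moved the median over all gene regions to 0.73, and scaling to exonic regions gave 70 higher and 322 lower. Rows with a listed peak numbered 670, with 157 higher and 127 lower, and rows without one 315, with 27 higher and 81 lower; the peaks were found in the IP reads.

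Non-coding exons took 7.003% of all counted reads in replicate 1 (95% exact Clopper-Pearson interval 6.98 to 7.03), 8.15% in replicate 2 (8.10 to 8.20) and 8.94% in the input (8.92 to 8.96), which is 0.848 times the input on average. An exact two-sided permutation of 3 libraries cannot go below p = 0.333, and gave p = 0.667 here. Exonic reads of every kind made up 67.6% and 62.6% of the IP libraries and 30.7% of the input. As a share of exonic reads, non-coding exons took 10.4% and 13.0% of the IP libraries and 29.1% of the input, 0.401 times. The 10 identifiers with most input reads, MT-RNR2, RN7SK, MALAT1, MT-RNR1, RPPH1, RMRP, SNORD3A, NEAT1, RNU5E-1 and RNU12, were then left out. Since they were chosen for their input reads, leaving them out raises the ratio by construction. Without them the shares were 3.17%, 4.36% and 3.14%, which is 1.20 times the input on average, with replicate 1 close to the input.

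Positions recurred between the lists more often in the mitochondrial and other classes than in the lncRNA-named class. At 1 shared base on the same strand, 1517 peaks (30.4%) of replicate 1 and 1331 (61.5%) of replicate 2 overlapped a non-coding exon peak of the other list. The shares were 80.6% and 85.7% for mitochondrial peaks, 46.7% and 77.5% for other non-coding peaks and 21.3% and 49.6% for lncRNA-named peaks. With 50% or more of both peaks shared, they were 35.1% and 56.0%, 30.9% and 55.9%, and 11.2% and 29.8% in the same order. Mitochondrial and other peaks were then close. Overlap with any listed peak of the other list, a looser target, was 28.3% and 50.6% over all listed peaks. For distal intron peaks it was 3.75% and 11.5%.

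The authors' deposited list of reproducible peaks held 1587 peaks, of which 89 (5.61%) were in non-coding exons. There, in the authors' deposited table, mitochondrial peaks numbered 26, all in tRNAs, lncRNA-named peaks 29 and others 34, of which 28 were Y RNA peaks and 4 were 5S rRNA peaks. Within the lncRNA-named set of the authors' deposited table, lnc-SNRPN-1 had 11 peaks with log2 folds from 3.14 to 3.97 and NORAD had 9 from 3.02 to 4.04. MT-RNR1, MT-RNR2, MALAT1, NEAT1 and GAS5 had none there. The authors' deposited table also lists MT-TV, at 3.03 to 3.06, whose peaks in replicate 1 were under the threshold.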

How the data were processed

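For each of 3 libraries the authors deposited raw counts of reads by gene identifier and transcript region, and a peak list for each IP library with a deposited -log10 p (capped at 400) and a deposited log2 fold over the input. The tools named per the submitters' processing notes are STAR, SAMtools, UMI-tools and cutadapt, and the build is hg19. No source used here gives tool versions, the peak caller, the counter, the annotation, strand use or how the reproducible list was made. Members and gene lists were chosen with earlier results of these data known.

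Counts of all gene regions that reached 10 reads in 2 or more of 3 libraries (29133) went into 1 edgeR quasi-likelihood fit (edgeR 4.0.16, R 4.3.3) with TMM scaling over all of them and Benjamini-Hochberg adjustment. A row was called at an adjusted p under 0.05. With a single input, a row could pass the filter on its IP reads alone but never on its input reads alone. Counts of higher and lower rows are therefore tilted toward higher. Total lines and intergenic reads (4.05%, 3.78% and 2.63% of reads) were left out. Depth was 4643494, 1244213 and 7807540 reads. The spread came from the 2 IP libraries (1 residual degree of freedom, common dispersion 0.0426, a coefficient of variation of 20.6%), and the input, a single library, was taken to vary as they do. The median prior degrees of freedom were infinite, so the spread was shared over gene regions. A row's own difference between the IP libraries therefore did not set its p or SE. On simulated data with 27760 regions tested, 1 of 100 regions changed 2-fold and 60 of 100 changed 4-fold were recovered, with 2 false among 63 calls. The simulated input had the IP spread. Far fewer regions were changed than were called in the data (25.0 percent higher and 31.1 percent lower). The adjustment depends on that share, so this recovery does not carry over to the data. A prior count of 2 went into the log2 fold of each replicate. It also went into the log2 ratios without an IP library. Those ratios are not fitted, so with few reads they are not directly comparable with the fitted folds. Rows with 0 input reads were set against a floor of 3 reads, and rows with 1 to 3 were given a ratio with a 95% counting interval.

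Peaks were overlapped with bedtools 2.31.1 on the same strand. Python 3.11.15, pandas 2.3.3 and SciPy 1.17.1 were used, and DESeq2 1.42.0 as an alternative. The rule named, in each class, the 5 genes with most peaks and the 5 peaks with the largest mean fold called in both lists, then the 5 highest and 5 lowest rows above the median read level, and up to 3 rows with the smallest p in each list: spliceosomal RNAs, RNase, 7SK and 7SL RNAs, Y RNAs, 5S rRNA copies, vault RNAs, small nucleolar and Cajal body RNAs, small RNA host genes, nuclear lncRNAs, cytoplasmic or mRNA-like lncRNAs, antisense transcripts and pseudogenes. Of the genes described, RNY3, RNY4, VTRNA1-3, ZNF761, PLK1S1, RNA5SP263, RPL37AP8, OTUD6B-AS1, SNHG1, SNHG14, SNHG16, TUG1 and mitochondrial tRNAs outside the rule were chosen after their values were seen. Alternatives were other scalings, filters and call rules, and leaving out an IP library.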

Additional observations from a re-analysis of the deposited data

How the results depend on the processing

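No paired analysis was possible because the single input has no partner for each replicate number. With a log2 fold of at least 1, 838 and 502 peaks were called in replicates 1 and 2, and with a -log10 p of at least 5 the count in replicate 2 was 177. Requiring an overlap of 50% or more of both peaks gave 17.7% and 40.6%, and leaving out peaks under 20 bases gave 25.2% and 59.3%. The number of higher rows was 63 with DESeq2, 70 with TMM over exonic regions, 101 with at least 30 reads and 304 with library size alone. The number of lower rows was 68, 322, 88 and 106 in the same order, and 400 with no filter. The median log2 fold was -0.79 with exonic TMM, 0.090 with at least 30 reads, 0.63 with library size alone, -0.31 with no filter, and from -0.126 to -0.038 when an IP library was left out, where there is no test. The ratio of read shares was 0.401 of exonic reads, 1.20 without the 10 top input identifiers, and from 0.784 to 0.912 when an IP library was left out. Of 74 gene rows followed, 61 were called, and none turned direction while called. Of the 61, 12 moved by over 1.5 times without IP replicate 1 and 17 without replicate 2, and 0 turned direction. The ratios without an IP library carry a prior count of 2 and are not fitted, so a move can also come from that. DESeq2 ended 5 calls among those it tested, exonic TMM 6, library size alone 3, no filter 5 and at least 30 reads 1. For the main results above, the cause was not tested. IP replicate 2, the shallowest library, limits the precision of folds for rows with few reads.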
